A study of Mus musculus with 8 samples.

Results

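Complex I, or NADH:ubiquinone oxidoreductase, is the entry point of the mitochondrial electron transport chain (ETC). Its peripheral arm takes electrons from NADH and passes them along iron-sulfur clusters to ubiquinone, and its membrane arm pumps protons. A few core subunits carry the catalysis, accessory subunits surround and stabilize them, and assembly factors help to build the complex without staying in it. Most subunits are encoded in the nucleus, while the core of the membrane arm is encoded in mitochondrial DNA. Hepatocytes are rich in mitochondria.

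The genes described here are the nuclear genes of complex I as their symbols mark them. Of 55401 gene rows, 53 had a symbol that starts with Nduf. After 4 rows with "-ps" in the symbol were left out, 49 genes remained, of which 41 counted as subunits and 8, whose symbols start with Ndufaf, as assembly factors. The subunits comprised 7 core subunits of the peripheral arm and 34 accessory genes. Among the accessory genes, Ndufa11b, Ndufs6b and Ndufb4c are annotated as processed pseudogenes and were kept by their symbols. Ndufa4 was kept by its symbol although its product is now placed in complex IV.

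RNA was sequenced from AML12, a mouse hepatocyte line, in 4 untreated control dishes and 4 dishes kept for 1 h under Opti-ELF-WMF. This stimulus is a pulsed, extremely low frequency, weak magnetic field with a peak of 100 mG, pulses of 4 ms and pulse frequencies that step from 1 to 8 Hz. All dishes stood between copper plates and were prepared together from the same culture, and the controls had an identical setup with the stimulator off in another incubator, so that exposure and incubator cannot be told apart. Nothing in the labels says that the dishes of a condition came from separate cultures, so every p-value measures only the spread between these dishes.

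The authors deposited TPM, a measure of transcript abundance in which the reads of a gene are divided by its length and every sample is scaled to the same total. Since TPM keeps no depth, how deeply each dish was sequenced is unknown and no counting interval is given. Between 19386 and 20114 genes were above 0 in each dish. Of 15 hepatocyte markers, 12 reached 1 TPM in at least 4 dishes and Tat, Asgr1 and Cps1 did not, and their summed level was 5660 to 5920 TPM in control and 6008 to 6232 TPM in exposed dishes. Most of that sum came from the keratins Krt8 and Krt18. Among the secreted proteins of this list, Alb (55.1 ± 2.67 and 49.7 ± 3.14 TPM in control and exposed dishes, SD, n = 4 each), Apoa1 and Ttr had lower means in exposed dishes. Trf (823.1 ± 23.28 and 853.5 ± 39.43 TPM), Apob (206.6 ± 3.522 and 214.2 ± 10.6 TPM) and Serpina1a had higher means there. Bile duct markers were also present (3 of 4, summed level 1203 to 1291 TPM in control and 1218 to 1339 TPM in exposed dishes), and of 6 mesenchymal markers Vim alone reached that level (summed level 1306 to 1403 TPM in control and 1382 to 1510 TPM in exposed dishes). Of 4 immune markers Cd68 alone reached it, with a summed level of at most 2.34 TPM and Adgre1 at 0, and of 3 endothelial markers none did, with Cdh5 at 0. Transcripts of mitochondrial DNA took 8.69 to 9.42% of all TPM in control dishes and 5.99 to 7.69% in exposed dishes, and because TPM has a fixed total, that part of the total went to all other genes. For the nuclear complex I lists, medians are also given after rescaling without these genes. The part of the marker levels in the results was not tested.

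The nuclear subunits were among the abundant transcripts of these cells, and the assembly factors were far less abundant. The median subunit had 144 TPM, against 21.9 TPM for the median of the 12122 genes that were tested. Ndufa4 was the most abundant, at 798 ± 15.2 TPM in control dishes and 792 ± 12.8 TPM in exposed dishes (SD, n = 4 each). Ndufb8, a membrane arm subunit, followed at 508 ± 27.0 and 525 ± 18.3 TPM, and Ndufab1, the mitochondrial acyl carrier protein, at 320.5 ± 12.8 and 338 ± 20.1 TPM. Between 100 and 300 TPM lay 29 of the 38 tested subunits. The 7 core subunits spanned a narrow band, with a ratio of 2.08 between the highest and the lowest mean level. Summed over their genes, 41 and 8 in number, the level of the subunits was 40.7 times that of the assembly factors. The median assembly factor had 22.6 TPM, near the median of all genes tested. Because TPM is a level per length, these levels can be compared between genes. This is less certain for genes with a near-identical copy, such as Ndufb4 and Ndufb4c, whose reads may have been split.

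**Figure D1:**
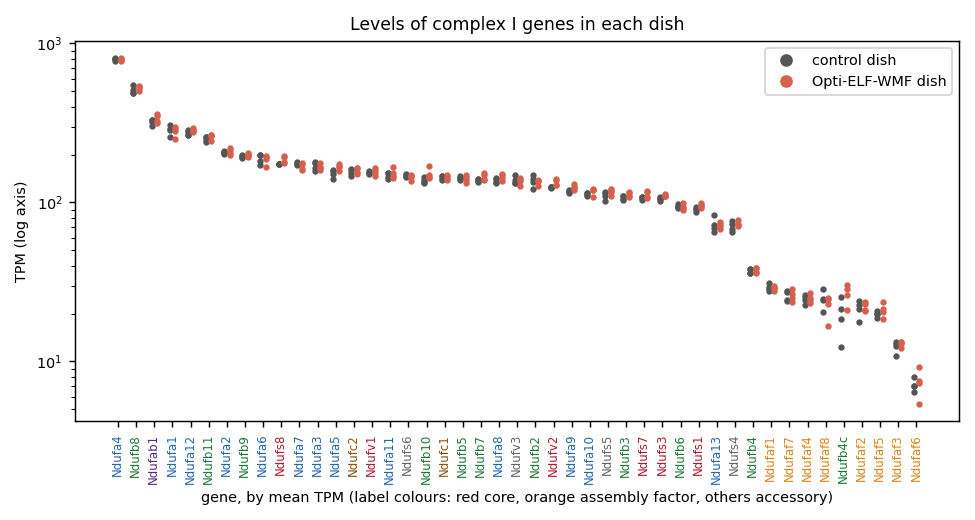
Levels of the tested complex I genes but 1 in each dish, in TPM on a log axis, with genes ordered by their mean (gray, 4 control dishes; red, 4 dishes after Opti-ELF-WMF). Ndufa4 stands highest at about 795 TPM, most subunits lie between 100 and 300 TPM, and the assembly factors, together with Ndufb4c and Ndufb4, form the low end.

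Of the 49 genes, 46 reached 1 TPM in at least 4 dishes and were tested (38 subunits and all 8 assembly factors). The other three were listed at or near 0. Ndufa11b was at 0 in every dish, Ndufa4l2, the relative of Ndufa4 known from low oxygen, was at 0 but for 0.06 TPM in control replicate 2, and Ndufs6b was at 0 but for 0.30 TPM in exposed replicate 2.

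After 1 h of Opti-ELF-WMF the nuclear subunits of complex I differed little from control, and no subunit or assembly factor passed the test across all genes. The median difference of the 38 subunits was 0.05 on the log2 scale, or 3.27%, against 0.03, or 1.84%, for all genes tested. Under 3 other scalings (upper-quartile, median-of-ratios, and rescaling without the mitochondrial genes) these medians were 0.0127, 0.0170 and 0.0167 for the subunits and -0.0053, -0.0013 and -0.0015 for all genes. The differences of single subunits lay between -0.05 and 0.45. Within this small range the core subunits of the peripheral arm stood highest, with a median of 0.07, against 0.03 for the accessory genes and 0.03 for the assembly factors. Under the same 3 scalings the medians were 0.0382, 0.0425 and 0.0421 for the core subunits, -0.0016, 0.0027 and 0.0023 for the accessory genes, and -0.0027, 0.0014 and 0.0009 for the assembly factors. Here a difference is exposed minus control of log2(TPM + 1), a scale on which a given change looks smaller in genes of low level.

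With limma and Benjamini-Hochberg adjustment over 12122 genes, 0 genes of the whole table had an adjusted p under 0.05 (0.00%), and the smallest adjusted p was 0.0572 over all genes, 0.193 among the subunits and 0.628 among the assembly factors. At an unadjusted p under 0.05, 1894 genes were counted, 1451 of them higher (12.0%) and 443 lower (3.65%) after exposure. At that lenient threshold 10 of the 38 subunits (26.3%) were higher and 0 were lower, and of the assembly factors 0 of 8 were higher and 0 lower. Of the subunits 26 had a difference above 0 and 12 below (21 and 17 after upper-quartile scaling), where 63.7% of all genes tested were above 0. All 4 exposed dishes were higher than all 4 control dishes for 5 subunits, against 8.01% of all genes tested, and for 0 subunits were they all lower, against 1.86%. This count of 10 depended on how the samples were scaled and on single dishes. After upper-quartile scaling 0 of 38 subunits were left, against 4.85% of all genes, and after median-of-ratios scaling, or after rescaling without the mitochondrial genes, 2 were left (Ndufa5 and Ndufb4c), against 5.55% and 5.72% of all genes. The same scalings gave 588 genes higher and 801 lower (upper-quartile), 673 and 755 (median-of-ratios) and 693 and 675 (rescaled), in place of 1451 and 443.

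**Figure D2:**
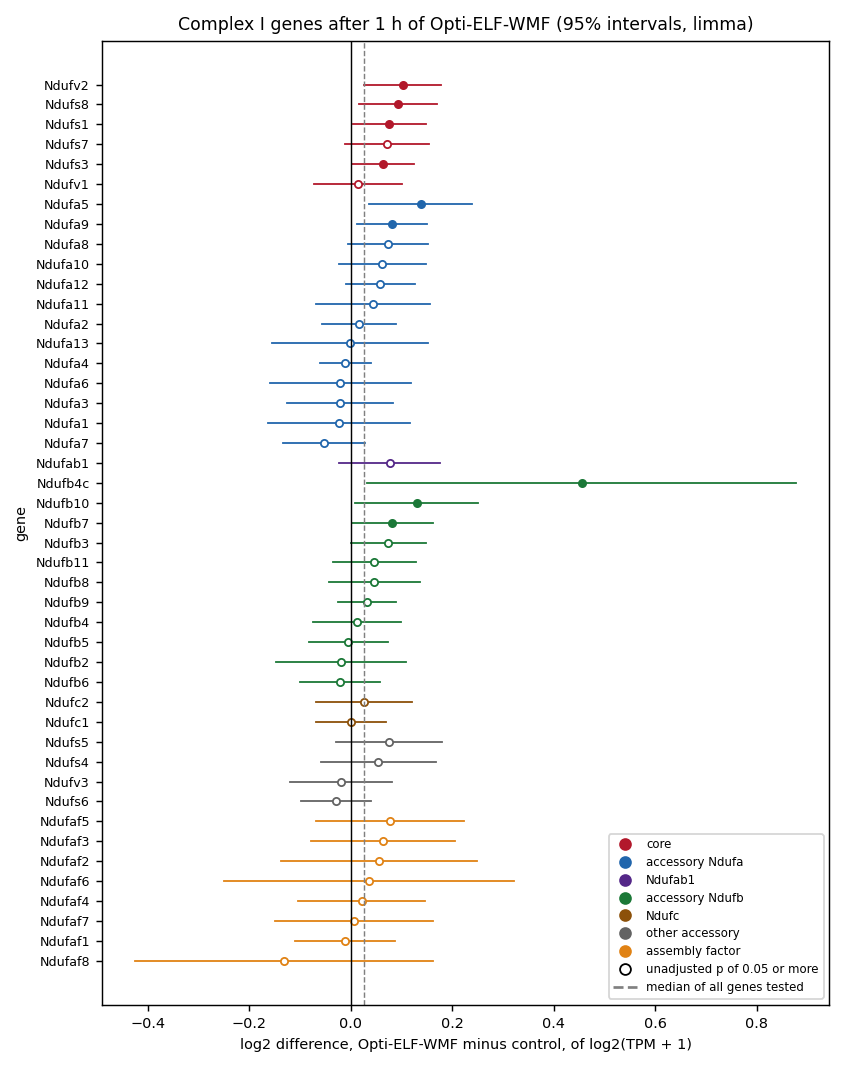
Differences of the tested complex I genes but 1 between exposed and control dishes in log2(TPM + 1) units, with 95% intervals from limma, ordered within roles (core, accessory, assembly factors). Filled points had an unadjusted p under 0.05, and the dashed line is the median of all genes tested (0.03). The filled points are all subunits on the right of 0, and the intervals of all 8 assembly factors cross 0.

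The core subunits had the highest median (0.0716) when all accessory genes were taken as 1 list, though Ndufab1 alone stood at 0.0765. Ndufv1, Ndufv2 and Ndufs1 form the part of the peripheral arm that takes electrons from NADH, and Ndufs3, Ndufs7 and Ndufs8 belong to the part that passes them to ubiquinone. All 7 core subunits had a difference above 0, where 63.7% of all genes tested did, and Ndufv1 was below 0 under each of the 3 other scalings. Of the 7, 5 had an unadjusted p under 0.05, where 12.0% of all genes were higher at that threshold. Under those scalings 0 of the 5 were left.

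Ndufv2 (chr17:66078638-66101559, minus strand, positions here and below from GENCODE M21 on GRCm38), which carries an iron-sulfur cluster beside the NADH site, was at 125, 123, 126 and 125 TPM in control replicates 1 to 4 and at 140.2, 128, 139 and 129 TPM in exposed replicates 1 to 4. The controls lay close together, every exposed dish was above them, and exposed replicates 1 and 3 were the highest. The difference was 0.10 (95% interval 0.03 to 0.18, limma adjusted p = 0.194). Ndufs1 (chr1:63143596-63176833, minus strand), the largest core subunit, was at 91.2, 87.7, 91.2 and 94.0 TPM in control and at 96.9, 99.9, 94.4 and 92.9 TPM in exposed dishes. Exposed replicates 1 to 3 were above every control, and exposed replicate 4 was within the control range. Its difference was 0.08 (0.004 to 0.15, limma adjusted p = 0.295). Ndufv1 (chr19:4007384-4012806, minus strand), which binds NADH and flavin, was at 153, 158, 151 and 156 TPM in control and at 160.5, 166, 146 and 153 TPM in exposed dishes. Its groups overlapped, since exposed replicate 2 was the highest dish and exposed replicate 3 the lowest, and the difference was 0.01 (-0.07 to 0.10).

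Ndufs8 (chr19:3908863-3912774, minus strand), which carries iron-sulfur clusters on the way to ubiquinone, was at 174, 175, 175 and 174 TPM in control and at 195, 194, 180.2 and 177 TPM in exposed dishes. The control dishes were almost equal, and the exposed dishes split into a higher pair, replicates 1 and 2, and a lower pair that was still above every control. The difference was 0.09 (0.02 to 0.17, limma adjusted p = 0.227). Ndufs3 (chr2:90894634-90904827, minus strand), a subunit of the same part without a cofactor, was at 102, 108.96, 106 and 105 TPM in control and at 109.6, 109.09, 109.4 and 113 TPM in exposed dishes. Its groups were apart only by the gap between control replicate 2 and exposed replicate 2, and the difference was 0.06 (0.002 to 0.12, limma adjusted p = 0.307). Ndufs7 (chr10:80249121-80256794, plus strand), which carries the last cluster before ubiquinone, was at 107, 108, 104 and 109 TPM in control and at 116, 118, 107 and 108 TPM in exposed dishes. Exposed replicates 1 and 2 stood above the rest and the other two lay among the controls, and the difference of 0.07 had an interval that included 0 (-0.01 to 0.15). A transcript with 98.6% identity to that of Ndufs3, Gm12251, had a mean of 0.445 TPM.

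Among the accessory genes, 31 were tested, of which 19 had a difference above 0 and 12 below, and under upper-quartile scaling 15 and 16. Those with an unadjusted p under 0.05 were Ndufa5, Ndufa9, Ndufb10, Ndufb7 and Ndufb4c, 16.1% of the accessory genes tested, near the 12.0% of all genes that were higher at that threshold. Under the other scalings 0 (upper-quartile) or 2 of them (Ndufa5 and Ndufb4c) were left. By family they were 2 of the 13 tested Ndufa genes, 3 of the 11 Ndufb genes, which belong to the outer membrane arm, and 0 of Ndufab1, the 2 Ndufc genes and the 4 other accessory genes (Ndufs4, Ndufs5, Ndufs6 and Ndufv3).

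Ndufa5 (chr6:24518666-24528013, minus strand), an accessory subunit of the ubiquinone-binding part, was at 150.1, 159, 157 and 140.2 TPM in control and at 174, 169.5, 157 and 167 TPM in exposed dishes. Exposed replicates 1, 2 and 4 were above every control, and replicate 3 was below the highest 2 controls. Its difference of 0.14 (0.04 to 0.24) had the smallest p of all subunits (limma adjusted p = 0.193). Ndufa9 (chr6:126821721-126849136, minus strand), which lies where the arms meet and is related to short-chain dehydrogenases, was at 119, 118, 115 and 120.1 TPM in control and at 132, 125, 124 and 120.3 TPM in exposed dishes. Every exposed dish was higher, with exposed replicate 4 just above control replicate 4, and the difference was 0.08 (0.01 to 0.15, limma adjusted p = 0.239).

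Ndufb10 (chr17:24722060-24724478, minus strand) was at 132, 145, 134 and 139 TPM in control and at 169, 148, 142 and 144 TPM in exposed dishes. Exposed replicate 1 was far above all other dishes and replicates 3 and 4 were within the control range, so that the difference of 0.13 (0.01 to 0.25) was 0.08 without exposed replicate 1. Ndufb7 (chr8:83566671-83571626, plus strand), which faces the intermembrane space, was at 134, 136, 140.3 and 139.9 TPM in control and at 149, 154, 141 and 139 TPM in exposed dishes. Again exposed replicates 1 and 2 were the highest, and replicate 4 was below 2 controls, with a difference of 0.08 (0.002 to 0.16). Ndufb8 (chr19:44548572-44555440, minus strand), a membrane arm subunit often blotted as a marker of assembled complex I, was at 488, 545, 488 and 512 TPM in control and at 542, 533, 499 and 524 TPM in exposed dishes. Control replicate 2 was the highest dish, and the difference of 0.05 (-0.04 to 0.14) did not pass either threshold.

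Ndufb4c had the largest difference of all subunits, and it is the gene whose level is least certain. GENCODE gives it as a processed pseudogene on chr15:73809507-73809896, minus strand, and its whole transcript of 390 bases is identical to positions 95 to 484 of the 971-base transcript of Ndufb4 (chr16:37647170-37654453, minus strand). Reads from these 390 bases fit both genes equally, and the rest of the Ndufb4 transcript, 581 bases, lies outside this stretch. The first 90 bases of the shared stretch are shown because they illustrate that identity, with the start codon in capitals.
Ndufb4c and Ndufb4: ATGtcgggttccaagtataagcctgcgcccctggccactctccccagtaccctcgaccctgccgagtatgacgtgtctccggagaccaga
Ndufb4c was at 12.4, 25.4, 18.4 and 21.4 TPM in control and at 21.0, 26.0, 28.4 and 30.1 TPM in exposed dishes. Control replicate 1 was far below all others, exposed replicate 1 was within the control range, and the difference was 0.45 (0.03 to 0.88) with control replicate 1 and 0.27 without it. Ndufb4 itself was at 35.8, 38.4, 35.9 and 38.2 TPM in control and at 36.5, 38.5, 38.5 and 36.0 TPM in exposed dishes, a difference of 0.01 (-0.07 to 0.10) that was below 0 under the 3 other scalings. Summed over both genes, the level was 56.5 ± 6.76 TPM in control and 63.8 ± 4.30 TPM in exposed dishes (SD, n = 4 each), a difference of 0.18 (-0.01 to 0.36), and 9 of 37 subunits then had an unadjusted p under 0.05. In all, 10 of the 49 genes had a transcript of another gene as a near-identical copy (at least 95% identity over at least 80% of the shorter transcript), so that their reads may have been split. Besides Ndufb4c, the copy with the highest level that is no member was Ndufa12-ps, with 99.5% identity and 35.8 TPM beside 279 TPM of Ndufa12.

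On the lower side, no member had an unadjusted p under 0.05. Ndufa7 (chr17:33824572-33838317, plus strand), a subunit of the peripheral arm, came nearest, at 171, 176, 179 and 174 TPM in control and 176, 162, 177 and 161 TPM in exposed dishes. Exposed replicates 2 and 4 were below every control and replicates 1 and 3 were among them, a difference of -0.05 (-0.13 to 0.03). Ndufs6, a zinc-binding subunit, was at 147 ± 2.81 TPM in control and 144 ± 5.18 TPM in exposed dishes, with exposed replicate 3 (137 TPM) the lowest of all. The membrane arm subunits Ndufb6 (94.8 ± 2.40 and 93.4 ± 4.05 TPM) and Ndufa3 (169.6 ± 10.1 and 167 ± 7.53 TPM) differed by -0.02 each, less than the spread between dishes (SD, n = 4 each). Ndufa4, the most abundant of all, had a difference of -0.01 with a narrow interval (-0.06 to 0.04).

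Promoters are shown for 4 of the 10 subunits with an unadjusted p under 0.05. Each holds a match to a motif searched for, as do those of Ndufb7 and Ndufb10, which are not shown. The window of Ndufv2, also not shown, holds no match to any of these motifs. RefSeq windows on GRCm38.p6, running from 250 bases before to 50 after the start of a gene, were matched by symbol for 40 of the 49 genes, and Ndufs1 and Ndufb4c were among those with none. They were searched on both strands for the letters GCGCANGCG, which NRF1 is known to bind, for CCGGAAG, bound by ETS factors such as GABP, for AAGATGGCG, bound by YY1, and for CCAAT, bound by NF-Y. Sequences run 5′ to 3′ on the strand of the gene, and capitals mark a match to the motif named in each line, or its reverse complement.
Ndufs8, chr19:3912725-3913024, minus strand, CCGGAAG: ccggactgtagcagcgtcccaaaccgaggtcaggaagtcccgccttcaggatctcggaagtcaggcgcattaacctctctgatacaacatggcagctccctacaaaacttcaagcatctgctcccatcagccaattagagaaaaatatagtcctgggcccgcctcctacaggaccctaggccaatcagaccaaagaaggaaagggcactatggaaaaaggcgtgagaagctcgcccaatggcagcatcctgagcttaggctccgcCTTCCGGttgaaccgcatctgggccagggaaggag
Ndufs3, chr2:90904672-90904971, minus strand, CCGGAAG: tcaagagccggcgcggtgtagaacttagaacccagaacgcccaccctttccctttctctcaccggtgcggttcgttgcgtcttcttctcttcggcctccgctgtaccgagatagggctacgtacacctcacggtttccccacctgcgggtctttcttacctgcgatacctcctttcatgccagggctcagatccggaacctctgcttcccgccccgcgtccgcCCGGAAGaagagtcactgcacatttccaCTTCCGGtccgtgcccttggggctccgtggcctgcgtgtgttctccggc
Ndufa5, chr6:24527477-24527776, minus strand, GCGCANGCG: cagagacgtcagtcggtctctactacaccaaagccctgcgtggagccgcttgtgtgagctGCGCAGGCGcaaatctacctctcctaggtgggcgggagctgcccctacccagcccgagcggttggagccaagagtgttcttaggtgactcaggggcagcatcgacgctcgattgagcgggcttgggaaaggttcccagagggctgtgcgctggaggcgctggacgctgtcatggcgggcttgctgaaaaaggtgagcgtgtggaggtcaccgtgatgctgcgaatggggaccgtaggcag
Ndufa9, chr6:126849095-126849394, minus strand, AAGATGGCG: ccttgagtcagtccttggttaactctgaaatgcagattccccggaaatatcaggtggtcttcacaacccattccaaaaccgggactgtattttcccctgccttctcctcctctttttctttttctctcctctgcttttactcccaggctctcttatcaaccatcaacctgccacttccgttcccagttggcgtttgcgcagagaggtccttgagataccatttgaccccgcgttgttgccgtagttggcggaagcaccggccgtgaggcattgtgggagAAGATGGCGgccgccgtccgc

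GCGCANGCG was in the windows of 10 of the 40 genes (25%), against 6.47% of the 27025 genes in the table. These 10 were 8 subunits (Ndufa5, Ndufa6, Ndufa8, Ndufa11, Ndufb4, Ndufb10, Ndufs5 and Ndufs6) and the assembly factors Ndufaf4 and Ndufaf5. Its stricter form GCGCATGCG, whose matches are all counted under GCGCANGCG as well, was in 4 of 40 (10%), against 1.81%. AAGATGGCG was in 6 of 40 (15%), against 1.49%, and CCGGAAG in 6 of 40 (15%), against 9.12%. CCAAT was in 14 of 40 (35%), near the 37.9% of all genes. Of the 7 subunits with an unadjusted p under 0.05 that have a window, 3 held CCGGAAG (Ndufb7, Ndufs3 and Ndufs8), 2 GCGCANGCG (Ndufa5 and Ndufb10) and 1 AAGATGGCG (Ndufa9), and of the 26 other subunits 1, 6 and 4 did. CCAAT was in 1 of the 7 and in 9 of the 26, and GCGCATGCG in 0 and 2. These 7 were set apart by a threshold that only 0 to 2 subunits passed under the 3 other scalings, and the split was not tested. Such a match describes letters in a window and is not a test of binding.

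The assembly factors showed no difference that stood out from the spread between dishes. They varied more than the subunits, with a median SD within groups of 0.11 on the log2 scale, against 0.05 for the subunits and 0.08 for all genes, and they were at a lower level. Their differences lay between -0.13 and 0.08, 6 above and 2 below 0, and 4 and 4 under each of the 3 other scalings. Summed over the 8 genes the level was 164.8 ± 7.13 TPM in control and 165.7 ± 5.24 TPM in exposed dishes (SD, n = 4 each).

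Ndufaf3 and Ndufaf4, partners in building the ubiquinone-binding part, were at 12.3 ± 1.06 against 12.9 ± 0.486 TPM and at 24.6 ± 1.52 against 25.0 ± 1.52 TPM. Ndufaf5, which hydroxylates Ndufs7, was at 20.8, 19.9, 18.8 and 19.8 TPM in control and at 20.6, 21.4, 23.5 and 18.6 TPM in exposed dishes. Exposed replicate 3 was its highest and replicate 4 its lowest dish, and the difference of 0.08 (-0.07 to 0.22) was the largest above 0 among these genes. Ndufaf8, the partner of Ndufaf5, was at 24.5, 28.5, 20.4 and 24.6 TPM in control and at 24.8, 23.0, 25.1 and 16.8 TPM in exposed dishes. Control replicate 2 was its highest and exposed replicate 4 its lowest dish, and the difference of -0.13 (-0.42 to 0.16) was -0.06 without the first and -0.004 without the second. Ndufaf7, a methyltransferase, was at 25.8 ± 2.00 TPM in control and 25.9 ± 2.20 TPM in exposed dishes. Ndufaf1, an inner membrane factor that works with Ecsit and Acad9, was at 29.2 ± 1.59 and 29.0 ± 0.847 TPM. Ndufaf2, a relative of Ndufa12 that holds its place until late in assembly, was at 21.4 ± 2.72 and 22.2 ± 1.43 TPM, while Ndufa12 was at 273 ± 8.65 and 284 ± 7.99 TPM. Ndufaf6, the least abundant member tested, was at 7.95, 7.01, 6.96 and 6.40 TPM in control and at 7.29, 5.41, 7.52 and 9.28 TPM in exposed dishes. Both its highest and its lowest dish were exposed, and its interval was among the widest (-0.25 to 0.32). For each of these factors the groups overlapped.

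The difference in the subunits was not shared evenly by the exposed dishes. Of the 10 subunits with an unadjusted p under 0.05, 5 were highest in exposed replicate 1, 3 in replicate 2, 2 in replicate 4 and 0 in replicate 3. The median subunit, measured from the mean of the control dishes, stood at 0.07 in exposed replicates 1 and 2 and at 0.02 in replicates 3 and 4, where the controls ranged from -0.03 to 0.02. For the core subunits the medians were 0.09, 0.10, 0.05 and 0.03 in exposed replicates 1 to 4, all above the controls, whose highest was 0.01. For all genes tested they were -0.002, 0.06, 0.02 and 0.03, so that exposed replicate 2 was high for genes in general and replicate 1 was not. All these medians are of TPM as deposited and were not computed by dish under the 3 other scalings. Whether the core subunits keep the groups apart there was not tested, and 0 of them had an unadjusted p under 0.05 there. Summed over the subunits, the level was 6636 ± 82.9 TPM in control and 6797 ± 165 TPM in exposed dishes (SD, n = 4 each), and exposed replicate 3, at 6596 TPM, was within the control range of 6539 to 6739 TPM.

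**Figure D3:**
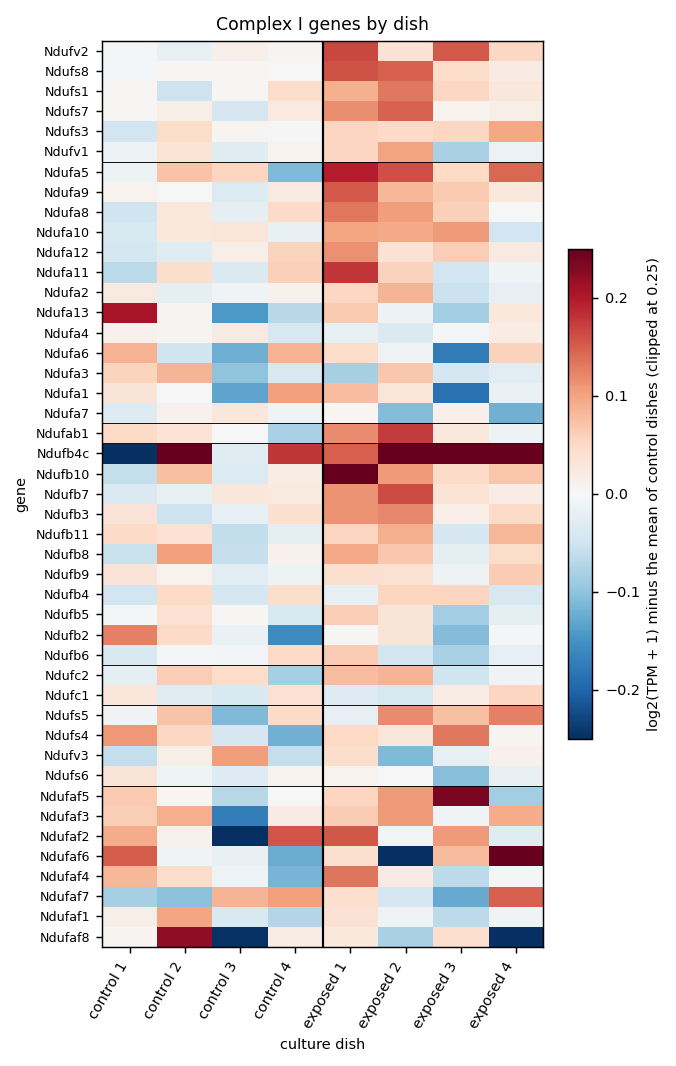
The tested complex I genes but 1 (rows, grouped by role) in each dish (columns), colored by log2(TPM + 1) minus the mean of the 4 control dishes and clipped at 0.25. Red cells gather in the core and upper accessory rows of exposed replicates 1 and 2, and the assembly factors at the bottom are mixed in all dishes.

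**Figure D4:**
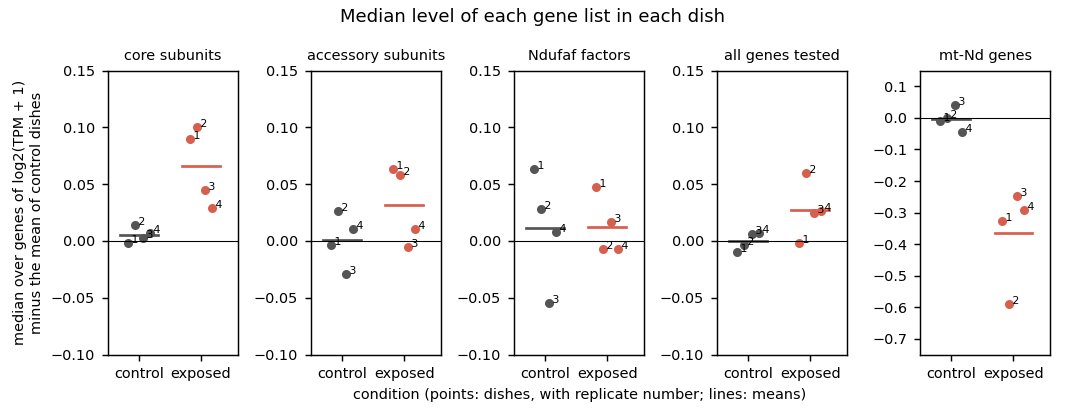
Median over the genes of each list of log2(TPM + 1) minus the mean of the control dishes, by dish, with replicate numbers and group means as lines. The mt-Nd panel has its own scale. In TPM as deposited, all 4 exposed dishes lie above the controls for the core subunits (0.03 to 0.10). Exposed replicates 3 and 4 fall among the controls for the accessory subunits, and all exposed dishes lie below the controls for the mt-Nd genes.

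Leaving out 1 dish at a time gave from 3 to 12 subunits with an unadjusted p under 0.05. The count was 3 without exposed replicate 2, 4 without exposed replicate 1, 4 without control replicate 3 and 6 without control replicate 1, and 11 or 12 without exposed replicate 3 or 4. In the same order, 1066, 1625, 1234, 1302, 1333 and 1438 of all 12122 genes were higher at that threshold, beside the 38 subunits. Ndufv2 and Ndufa5 were counted without any of the 8 dishes in turn, and Ndufs3 was counted without control replicate 2 alone. A variance prior without a trend over abundance left 4 (Ndufa5, Ndufa9, Ndufs8 and Ndufv2), against 10.1% of all genes.

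**Figure D5:**
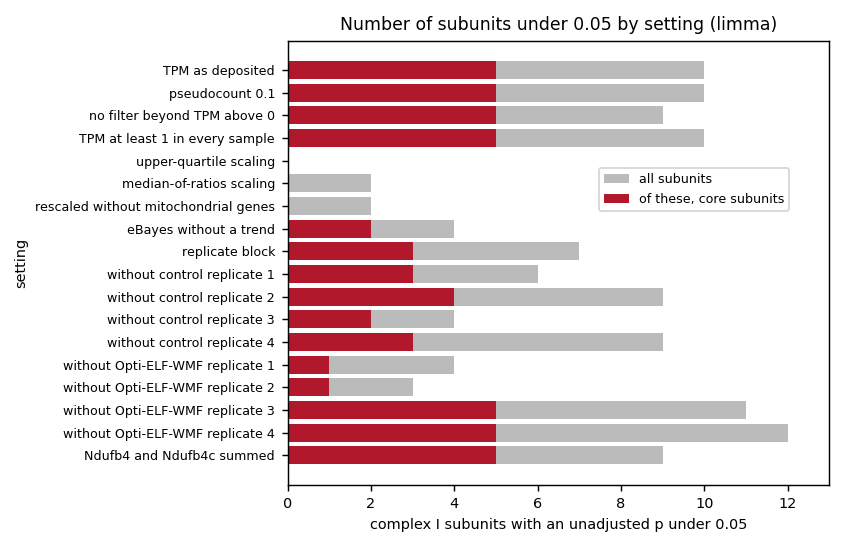
Number of complex I subunits with an unadjusted p under 0.05 in limma (gray bars) and the core subunits among them (red part) for the TPM as deposited and for each other setting. The count is 10 as deposited, 0 to 2 after the scalings that use most genes or leave out mitochondrial genes, and 3 to 12 when single dishes are left out.

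The mitochondrial partners of these genes lay below 0. The 7 subunits of complex I encoded in mitochondrial DNA, from mt-Nd1 to mt-Nd6, all had a difference below 0, from -0.33 to -0.64, and 7 of 7 had an unadjusted p under 0.05, against 3.65% of genes on the lower side. They were below 0 under upper-quartile and median-of-ratios scaling too, and the smallest limma adjusted p among them was 0.122. Their summed level was 26690 ± 779 TPM in control and 20530 ± 2043 TPM in exposed dishes (SD, n = 4 each), 23.1% lower by the means, while that of the nuclear subunits was 2.43% higher. Both sums are of TPM as deposited, with its fixed total. After rescaling without the mitochondrial genes, 22 of the 38 nuclear subunits were above 0 and 16 below. Their median was then 0.0167, where that of all genes was -0.0015. The dish with the lowest mt-Nd level, exposed replicate 2 at 17560 TPM, was among the 2 dishes with the highest nuclear subunits. These genes lie on the same mitochondrial DNA, mt-Nd6 on the minus strand and the others on the plus strand, and share long precursor transcripts within a strand, so they are not independent of each other. In bulk samples, fewer cells of a type and less RNA per cell cannot be told apart.

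Other nuclear genes of the ETC were tested in the same fit, with the same control dishes, and at an unadjusted p under 0.05 12.0% of all genes were higher. Complex II, whose 4 subunits are all nuclear, had 4 of 4 above 0 and 3 with an unadjusted p under 0.05, with a median of 0.09, and under each of the 3 other scalings 4 were above 0 and 2 had such a p, with medians of 0.0572 to 0.0615. Its membrane anchor Sdhc was at 91.2, 87.8, 83.9 and 93.5 TPM in control and at 101, 111, 102 and 98.5 TPM in exposed dishes, every exposed dish being higher (difference 0.21, limma adjusted p = 0.122). The 9 nuclear subunits of complex III were all above 0, with 3 at an unadjusted p under 0.05 and a median of 0.05, and under upper-quartile scaling 7 were above 0 and 1 was left at that threshold. Of the 12 nuclear subunits of complex IV, 9 were above 0 (5 under upper-quartile scaling) and 1 had an unadjusted p under 0.05, with a median of 0.03. The 78 mitochondrial ribosomal proteins had 62 above 0 (46 under upper-quartile scaling), 14 higher and 1 lower at that threshold and a median of 0.06. Under upper-quartile scaling 3 of them were higher and 3 lower, under median-of-ratios scaling 6 and 2 and after rescaling 5 and 3, with medians of 0.0237 to 0.0280. Of the listed assembly factors of complex I without a Nduf symbol, Coa1 had no row under that symbol. The other 10, such as Ecsit, Acad9 and Timmdc1, had 6 above 0 and 4 below (3 and 7 under the other scalings). They had 0 at an unadjusted p under 0.05 and a median of 0.01. The median of the complex I subunits (0.05) therefore lay within the span of these lists (0.01 to 0.09), and the lists were not tested against each other.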

How the data were processed

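RNA of 4 control and 4 exposed dishes was sequenced after a stranded mRNA preparation. The authors deposited 1 table of TPM per dish. The submitters' processing notes name Trimmomatic 0.39, STAR 2.7.4a, RSEM 1.3.3 and the build mm10, and the annotation is not given in the sources used here. Genes with at least 1 TPM in at least 4 samples were tested (12122) with limma 3.58.1 in R 4.3.3 (lmFit, eBayes with a trend) on log2(TPM + 1), with Benjamini-Hochberg adjustment over all of them. The pipeline was tested on simulated data with changes larger than any difference of the subunits. That test does not show how well differences as small as theirs are found. The study's methods give no test of single genes but a gene set enrichment analysis of these data. It listed sets such as NADH dehydrogenase activity as suppressed at 1 h, and no set was tested here. Gene positions are those of GENCODE M21 (GRCm38), where 55141 of 55401 identifiers were found. Promoters came from RefSeq, and copies from BLAST 2.17.0 (at least 95% identity over at least 80% of the shorter transcript).

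Members and lists were chosen with earlier results of these data known. Values were given for the 7 core subunits, all assembly factors, Ndufb8, the 5 smallest p in each direction, the 3 highest and lowest levels and members whose groups do not overlap. Ndufb10, Ndufb7, Ndufb4c, Ndufb4 and Ndufa12 were added after their values were seen. The values of 1 subunit are not reported here, though the counts, medians and sums include it. Alternatives covered pseudocount, filter, scaling, variance trend, replicate block and each dish left out.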

Additional observations from a re-analysis of the deposited data

Results flagged for a closer look

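Ndufs3 in exposed replicate 4 was at 112.84 TPM, apart from the other 3 exposed dishes, which lay between 109.09 and 109.58 TPM, by Dixon's criterion for a group of 4. The check covered 60 groups of 4 dishes, of which chance gives about 3, and 1 was found.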

How the results depend on the processing

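The pseudocount of 0.1 left the same 10 subunits, and a filter of at least 1 TPM in every sample too. Without a filter 9 of 40 subunits were counted, 8 of them shared with the 10. The subunits counted as higher were 0 after upper-quartile scaling, 2 after median-of-ratios scaling, 2 after rescaling without mitochondrial genes and 4 without a trend, and 3 to 12 with 1 dish left out. Summing Ndufb4 and Ndufb4c, an alternative chosen after seeing the data, gave 9 of 37. Assembly factors counted as higher were 0 to 1 with 1 dish left out, the 1 being Ndufaf5 without exposed replicate 4. The median of the subunits was 0.0127, 0.0170 and 0.0167 under the 3 scalings (upper-quartile, median-of-ratios, rescaled), where that of all genes was -0.0053, -0.0013 and -0.0015, and that of the assembly factors was -0.0027, 0.0014 and 0.0009. With 1 dish left out the subunits' median was 0.0351 to 0.0578 and the assembly factors' 0.0086 to 0.0665. Genes counted as higher were 588, 673 and 693 under the 3 scalings and 1066 to 1625 with 1 dish left out. Genes counted as lower were 801, 755 and 675, 832 without a filter and 330 to 513 with 1 dish left out. The limma adjusted p was under 0.05 for 1 gene under the stricter filter, upper-quartile scaling, median-of-ratios scaling and no trend, and for 0 to 2 genes with 1 dish left out. The cause was not tested.

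Among the 28 named members, 367 of 475 alternative values kept their direction and side of the threshold, 73 kept the direction but were no longer past it, 6 moved past it and 29 changed sign. Under the 3 scalings in the order above, Ndufaf4 was at -0.011, -0.0068 and -0.0073, Ndufaf7 at -0.0269, -0.0227 and -0.0231, Ndufv1 at -0.019, -0.0147 and -0.0151, and Ndufb4 at -0.0205, -0.0163 and -0.0167. With 1 dish left out the range was -0.0557 to 0.0065 for Ndufa3, -0.0369 to 0.0206 for Ndufaf1, -0.0305 to 0.1086 for Ndufaf2, -0.0175 to 0.0506 for Ndufaf4, -0.0701 to 0.157 for Ndufaf6, -0.0422 to 0.0492 for Ndufaf7, -0.0036 to 0.0296 for Ndufb4 and -0.014 to 0.0461 for Ndufv1.

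Over all genes tested, same-numbered dishes did not deviate together (correlations -0.0348, -0.0419, 0.000369 and 0.0258). The labels do not say whether dishes with the same number were handled together, and such correlations cannot exclude it. With the replicate block 7 subunits had an unadjusted p under 0.05, 6 of them among the 10. TPM keeps no depth, so it cannot be said how far counting error limits the low assembly factors.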

Other observations

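The rows left out for "-ps" in their symbol held 2 transcripts at an appreciable level. Ndufb1-ps, which GENCODE places on chr12:101968090-101977068, was at 59.1, 62.0, 57.9 and 52.9 TPM in control and at 58.4, 53.9, 57.9 and 56.5 TPM in exposed dishes. No row carried the symbol Ndufb1, so this was the row nearest to that subunit in these tables. Ndufa12-ps was at 36.0 ± 3.16 TPM in control and 35.7 ± 4.00 TPM in exposed dishes (SD, n = 4 each). Ndufab1-ps and Ndufs5-ps were at most 0.88 and 1.37 TPM. Neither of the transcripts at an appreciable level differed beyond the spread between dishes.

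The nuclear RNAs Malat1 and Neat1 together took 0.0420 to 0.0443% of all TPM in control dishes and 0.0303 to 0.0403% in exposed dishes, and the part of this in the values of the subunits was not tested.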
